A study of Mus musculus with 12 samples.

Results

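The desmosome genes described here are 8 genes chosen by symbol for the junction they build: Dsp, Jup, Pkp1, Pkp2, Pkp3, Pkp4, Dsc2 and Dsg2. The choice was made with earlier results of these data known. All 8 were found among the 37583 genes of the count tables, and all 8 passed the filter on low counts. Poly-A RNA was sequenced from cells of mouse strain 129SV/Jae/C57BL6J, in 12 libraries that form 6 groups of 2 replicates along the reprogramming of fibroblasts to induced pluripotent stem cells. The starting cells were mouse embryonic fibroblasts (MEF), grown in MEF media. The 4 intermediate groups came from cultures in ES media with dox and AA and were sorted for the surface carbohydrate SSEA1 together with a pair of further surface proteins. On day 3, d3_Eff cells carried CD73 and lacked Sca1, and d3_Ineff cells carried Sca1 and lacked CD73. On day 6, d6_Eff cells carried EpCAM and lacked Sca1, and d6_Ineff cells carried Sca1 and lacked EpCAM. The end point was induced pluripotent stem cells (iPSC) grown in ES media. The labels abbreviate the intermediate groups as Eff and Ineff, do not say how the reprogramming factors were delivered, and do not explain the prefix 3/4 in the titles of the MEF and iPSC samples.

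Desmosomes are spot-like junctions that join the intermediate filaments of neighbouring cells. In their transmembrane layer, desmogleins and desmocollins, which are members of the cadherin family, bind their partners on the next cell. Inside the cell, plakoglobin and the plakophilins bind the cadherin tails, and desmoplakin links this plaque to keratin filaments, or to desmin in heart muscle. Fibroblasts are mesenchymal cells that make few desmosomes, and mouse pluripotent stem cells grow as compact epithelial colonies, so the conversion between them passes through a mesenchymal-to-epithelial transition. Among the members, Dsg2 (ENSMUSG00000044393) encodes desmoglein 2 and Dsc2 (ENSMUSG00000024331) desmocollin 2, the pair of desmosomal cadherins found outside stratified epithelia. Jup (ENSMUSG00000001552) encodes plakoglobin, which also serves in adherens junctions, and Dsp (ENSMUSG00000054889) encodes desmoplakin. Pkp1 (ENSMUSG00000026413), Pkp2 (ENSMUSG00000041957) and Pkp3 (ENSMUSG00000054065) encode the plaque plakophilins, of which the first is known best from stratified epidermis and the second from heart and simple epithelia. Pkp4 (ENSMUSG00000026991) encodes a relative of p120-catenin also called p0071, which is found in both adherens junctions and desmosomes.

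Gene counts came to 9284060 in MEF replicate 2 and to between 14911103 and 22763548 in each of the other 11 libraries. The share of uniquely placed reads that fell outside genes was 47.15% for MEF replicate 2 and 24.15% for d6_Eff replicate 2. The other 10 ranged between 5.1% and 11.7%. The correlation of log2 CPM between replicates was 0.95 in MEF and 0.983 to 0.99 elsewhere. Levels are CPM, gene counts relative to the TMM-scaled library total. Fold changes and adjusted p-values come from edgeR's quasi-likelihood test over all 16240 genes tested, and a gene was called at an adjusted p under 0.05. Nothing in the labels tells if a pair of replicates came from separate cultures, so each p reflects the spread of the samples at hand, which may be technical. In these bulk libraries, fewer cells that express a gene and less RNA of it in each cell cannot be told apart.

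The sequence upstream of the start site is shown for Dsp, Pkp4 and Jup, the only members with a RefSeq window in the set used here. They were not picked by level or profile. These windows, on GRCm38.p6, cover 3 of the 8 members, with a pair of start sites for Pkp4. Dsc2 and Dsg2 were left out because of where they lie in the genome, and no window was matched for Pkp1, Pkp2 or Pkp3. Each line below gives the 250 bases before the start, 5′ to 3′ on the gene's strand. Capitals mark GC boxes (GGGCGG or its complement CCGCCC, the letters bound by Sp and Klf proteins) and E-boxes of the kind bound by Snail and Zeb repressors (CACCTG or its complement CAGGTG).
Dsp upstream window, chr13:38151044-38151293, plus strand: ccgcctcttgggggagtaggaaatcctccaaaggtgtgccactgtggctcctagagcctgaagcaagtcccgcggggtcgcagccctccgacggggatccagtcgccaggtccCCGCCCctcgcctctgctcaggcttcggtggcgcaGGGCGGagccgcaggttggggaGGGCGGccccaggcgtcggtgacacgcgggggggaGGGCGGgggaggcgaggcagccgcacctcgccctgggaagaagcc
Pkp4 first upstream window, chr2:59160600-59160849, plus strand: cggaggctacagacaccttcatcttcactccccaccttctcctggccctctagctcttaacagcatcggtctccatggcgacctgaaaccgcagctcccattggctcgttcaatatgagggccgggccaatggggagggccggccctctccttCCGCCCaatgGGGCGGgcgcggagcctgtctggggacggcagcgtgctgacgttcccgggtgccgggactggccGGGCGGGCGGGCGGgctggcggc
Pkp4 second upstream window, chr2:59161619-59161868, plus strand: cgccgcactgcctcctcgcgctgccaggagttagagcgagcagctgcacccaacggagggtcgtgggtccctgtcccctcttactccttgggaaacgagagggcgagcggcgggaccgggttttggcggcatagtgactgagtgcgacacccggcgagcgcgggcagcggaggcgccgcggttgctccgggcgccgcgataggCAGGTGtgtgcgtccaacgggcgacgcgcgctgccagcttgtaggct
Jup upstream window, chr11:100397791-100398040, minus strand: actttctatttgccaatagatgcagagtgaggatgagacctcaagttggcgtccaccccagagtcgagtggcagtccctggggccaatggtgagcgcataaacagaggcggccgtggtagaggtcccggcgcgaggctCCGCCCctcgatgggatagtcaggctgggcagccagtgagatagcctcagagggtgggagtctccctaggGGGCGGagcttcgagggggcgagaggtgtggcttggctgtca
The Dsp window held 4 GC boxes, the first Pkp4 window 5, of which the last 3 overlap one another, the second Pkp4 window none and the Jup window 2. Over all 32851 such RefSeq windows, 32.7% held at least 1. An E-box was found in the second Pkp4 window, 47 bases before the start, and in none of the other 3 windows, and 17.2% of all windows held one. A TFAP2 match (GCCNNNGGC) stood in the Dsp window 75 bases before the start, sharing its first base with a GC box, and 13.7% of all windows held one. The grainyhead letters AACNNGTT were in none of the 4 windows and in 3.6% of all. The G and C content was 72.4% for Dsp, 68.4% and 70% for Pkp4, 62.0% for Jup and 52.4% for the median window. Both strands were searched, and a match describes the letters only.

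Desmoplakin transcripts followed a course with a peak in d6_Eff cells. Dsp was counted at 1.39 CPM in MEF replicate 1 and had no read in replicate 2. It reached 48.8 and 34.7 CPM in d3_Eff libraries, against 18.8 and 9.37 CPM in d3_Ineff libraries. On day 6 it stood at 93.3 and 132 CPM in d6_Eff libraries, against 24.9 and 34.4 CPM in d6_Ineff libraries. Both d6_Eff libraries lay above every other library, and in iPSC the level was back at 15.0 and 17.4 CPM. In order of the mean, d6_Eff was followed by d3_Eff, d6_Ineff, iPSC, d3_Ineff and MEF, and of these neighbours iPSC and d3_Ineff overlapped.

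Plakoglobin had another course, high throughout the sorted groups. Jup measured 138 and 53.2 CPM in MEF, a difference between replicates of more than 2-fold. It stood at 275 and 297 CPM in d3_Eff libraries, against 403 and 304 CPM in d3_Ineff libraries, and at 315 and 321 CPM in d6_Eff libraries, against 455 and 442 CPM in d6_Ineff libraries. The iPSC libraries held 127 and 122 CPM, within the range of MEF. Every sorted library lay above every MEF and iPSC library, and d6_Ineff, not d6_Eff, had the highest mean.

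The desmosomal cadherins differed from each other. Dsg2 had 1.03 CPM in MEF replicate 1 and no read in replicate 2. It had 0.694 and 1.87 CPM in d3_Eff libraries, against 0.437 and 0 CPM in d3_Ineff libraries, and 20.2 and 19.9 CPM in d6_Eff libraries, against 0.290 and 0.997 CPM in d6_Ineff libraries. The iPSC libraries held 23.2 and 21.5 CPM, so that 4 libraries stood near 20 CPM and the other 8 below 2. In the GENCODE M21 annotation, exons of Dsg2 share 330 bases with Gm16090 on the opposite strand, and since counting ignored strand the reads of that stretch cannot be assigned to either gene. Dsp likewise shares 499 bases with Gm10129, which the count tables do not list.

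Dsc2 was low in every group. It measured 2.89 and 4.61 CPM in MEF, 5.42 and 3.27 CPM in d3_Eff, 6.21 and 4.98 CPM in d3_Ineff, 10.6 and 11.9 CPM in d6_Eff, 7.47 and 10.2 CPM in d6_Ineff and 2.06 and 1.58 CPM in iPSC. The highest libraries were those of day 6 and the lowest those of iPSC, the reverse of Dsg2 at the end point.

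Among the plakophilins, Pkp2 and Pkp4 were present in every library. Pkp2 measured 39.4 and 29.5 CPM in MEF, 111 and 91.9 CPM in d3_Eff, 129 and 122 CPM in d3_Ineff, 67.9 and 73.0 CPM in d6_Eff, 62.3 and 67.8 CPM in d6_Ineff and 70.6 and 58.4 CPM in iPSC. Its day 3 libraries were above all others. Pkp4 measured 37.0 and 9.21 CPM in MEF, 89.7 and 73.3 CPM in d3_Eff, 88.1 and 71.3 CPM in d3_Ineff, 125 and 134 CPM in d6_Eff, 68.9 and 81.1 CPM in d6_Ineff and 117 and 103 CPM in iPSC. Here d6_Eff came first and iPSC second, and the other 3 sorted groups overlapped.

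Among the sorted groups, Pkp1 and Pkp3 were high in d6_Eff alone. Pkp1 measured 7.38 and 3.07 CPM in MEF, at most 1.56 CPM in any d3_Eff, d3_Ineff or d6_Ineff library, and 17.3 and 21.8 CPM in d6_Eff. It had no read in either iPSC library, which allows a level of up to 0.0780 CPM over the pair, a limit that covers counting error only. Pkp3 measured 1.24 and 0 CPM in MEF, 0.520 and 0 CPM in d3_Eff, 1.01 and 2.17 CPM in d3_Ineff, 19.4 and 20.1 CPM in d6_Eff, 0.348 and 2.31 CPM in d6_Ineff and 16.7 and 15.9 CPM in iPSC. The d6_Eff libraries thus lay apart from all other sorted libraries for both genes, while iPSC were near d6_Eff for Pkp3 and at 0 for Pkp1.

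**Figure D1:**
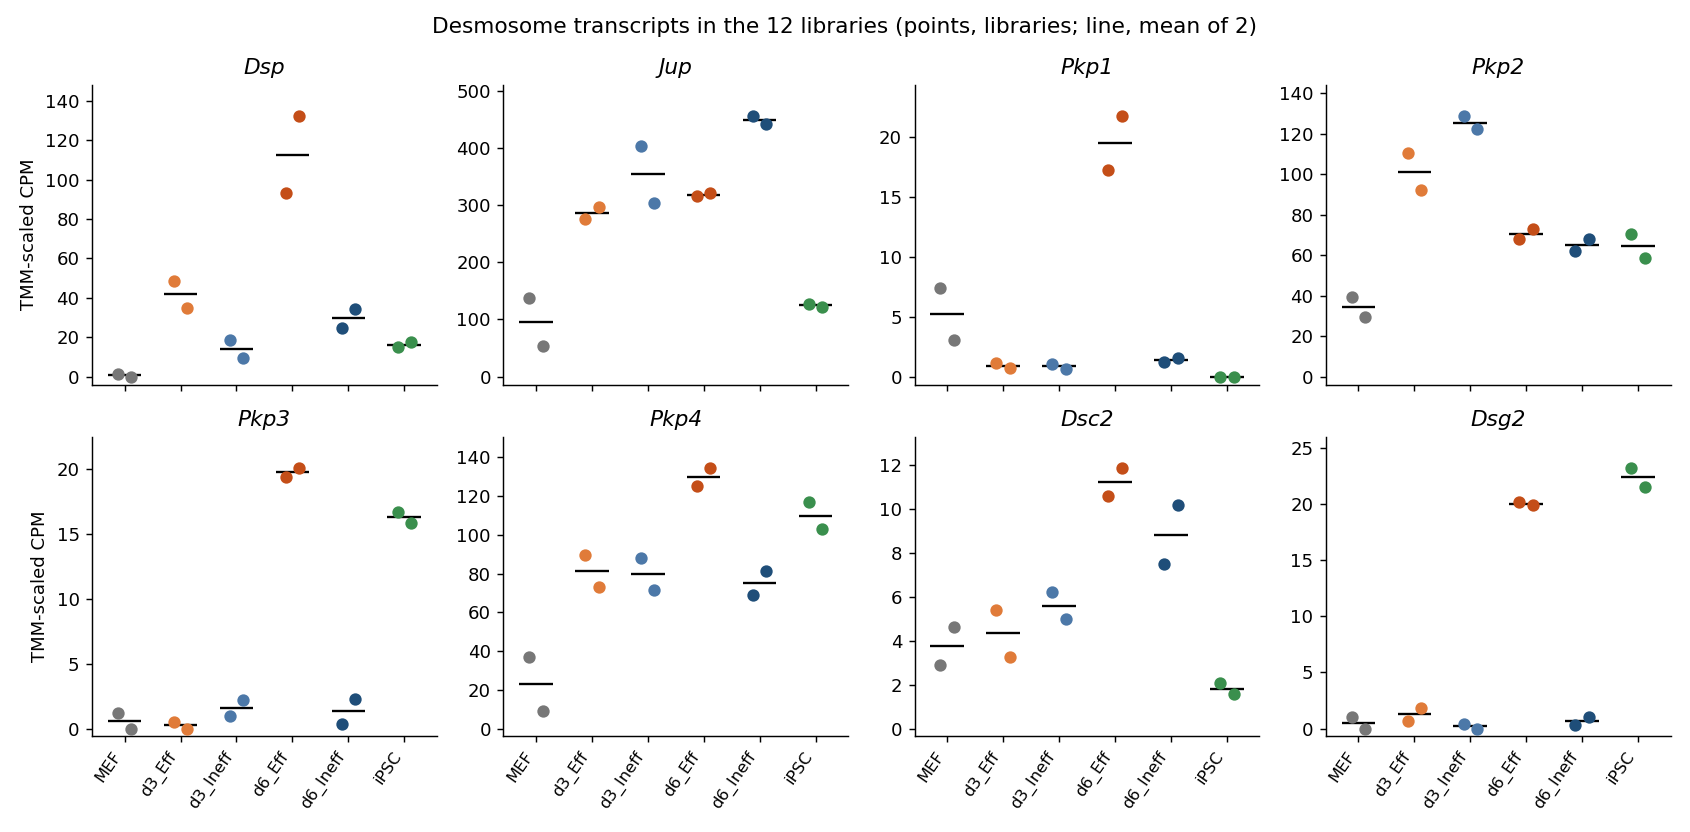
TMM-scaled CPM (y axis, linear, a scale of its own for each gene) of the 8 desmosome genes in the 6 groups along the x axis, where points are libraries and lines are means of 2. Dsp, Pkp1, Pkp3, Pkp4 and Dsc2 had their highest mean in d6_Eff, Dsg2 in iPSC, Pkp2 in d3_Ineff and Jup in d6_Ineff.

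On day 6, the Eff population carried more transcript of 4 members than the Ineff population, and no member was called lower. The higher ones were one cadherin, Dsg2, a pair of plakophilins, Pkp1 and Pkp3, and the filament linker, Dsp. Of all genes tested, 14.6% were called in this comparison, 5.37% higher and 9.25% lower. The median log2 fold change was 1.36 over the 8 members and 0 over all genes. Both d6_Eff libraries lay above both d6_Ineff libraries for each of the 4. The groups did not overlap for the members that were not called either, so this did not set the 4 apart. The share of all genes without overlap is not given here. The log2 fold change was 4.88 ± 0.92 (SE) for Dsg2, with an adjusted p of 0.00514 by edgeR's quasi-likelihood test, and 3.80 ± 0.54 for Pkp1, with 0.00149. For Pkp3 it was 3.83 ± 0.97, with an adjusted p of 0.0229, and for Dsp 1.93 ± 0.50, with 0.0244.

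The other 4 members were not called between the day 6 populations. Pkp2 (log2 fold change 0.11 ± 0.20, adjusted p 0.763) and Dsc2 (0.35 ± 0.39, adjusted p 0.614) had small differences. Pkp4 was at 130 ± 6.60 CPM in d6_Eff and 75.0 ± 8.68 CPM in d6_Ineff (SD, n = 2 each; log2 fold change 0.79 ± 0.43, edgeR adjusted p 0.26). Jup was at 318 ± 3.84 CPM in d6_Eff and 449 ± 9.01 CPM in d6_Ineff (SD, n = 2 each; log2 fold change -0.50 ± 0.33, edgeR adjusted p 0.368). With only the 4 day 6 libraries in the fit, Pkp4 was called higher (adjusted p 0.000427) and Jup lower (adjusted p 0.0036), and both were also called when either MEF library was left out. Pkp1 kept its call without any 1 library, Dsg2 missed it without d6_Ineff replicate 1 (adjusted p 0.0519), Pkp3 without that library or either d6_Eff library (0.0727 to 0.149) and Dsp without any 1 of the 4 day 6 libraries (0.0602 to 0.199). The log2 fold change of Dsg2 was 4.24 without d6_Ineff replicate 1 and 6.03 without d6_Ineff replicate 2, and that of Pkp3 3.00 and 5.75.

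On day 3, no member was called between the Eff and Ineff populations, where 0.4% of all genes were called (0.16% higher and 0.24% lower). Leaving out 1 library gave between 0.0229% (without d3_Eff replicate 2) and 3.68% (without MEF replicate 2). The median log2 fold change was -0.137 over the members and 0 over all genes. An unadjusted p under 0.05 was reached by 3 members in edgeR, and DESeq2 called none. The 3 were Dsp, at 41.7 ± 9.99 CPM in d3_Eff and 14.1 ± 6.67 CPM in d3_Ineff (log2 fold change 1.57 ± 0.50, adjusted p 0.3), Dsg2 (2.48 ± 1.05, adjusted p 0.56) and Pkp3 (-2.50 ± 1.13, adjusted p 0.614). Dsg2 and Pkp3 rest on few reads at this stage: Dsg2 on 16 and 36 in d3_Eff and 10 and 0 in d3_Ineff, and Pkp3 on 12 and 0 in d3_Eff and 23 and 48 in d3_Ineff. Dsp was called higher in d3_Eff with only the 4 day 3 libraries in the fit (adjusted p 0.000151), with no filter on low counts (4.24e-05), a setting that also called Dsg2 higher (0.00324) and Pkp3 lower (0.00228), and without MEF replicate 1 (0.00809) or replicate 2 (0.0129).

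Whether the gap between Eff and Ineff was wider on day 6 than on day 3 was tested directly, and 1 member was called, Pkp1, which had a log2 difference of 3.70 ± 0.76 and an adjusted p of 0.0485. The sort used CD73 on day 3 and EpCAM on day 6, so day and sort cannot be told apart in this test. Of all genes, 1.39% were called, 0.296% with a positive and 1.09% with a negative difference. For Pkp3 the difference was 6.33 ± 1.47, with an adjusted p of 0.072 in edgeR and 0.00274 in DESeq2. For Dsp it was 0.36 ± 0.68 (adjusted p 0.944), so that a larger gap on day 6 than on day 3 was not shown for desmoplakin. For Dsg2, with 2.40 ± 1.46 and an adjusted p of 0.569, none was shown either. The Pkp1 call was lost in 10 of the 12 fits that left out 1 library (adjusted p up to 0.217), with the replicate number as a block (0.0534) and with total counts alone (0.0889), and held in those without MEF replicate 1 (0.00226) or replicate 2 (0.0023).

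Within the Eff populations, 3 members were higher on day 6 than on day 3, and 9.11% of all genes were called (4.24% higher and 4.87% lower). The sort markers also differed between these days, so day and sort cannot be told apart. Pkp3 had a log2 fold change of 6.13 ± 1.15 (adjusted p 0.0064), Pkp1 of 4.38 ± 0.56 (adjusted p 0.000956) and Dsg2 of 3.98 ± 0.87 (adjusted p 0.0145). All 3 had been under 2 CPM in both d3_Eff libraries. Dsp (1.43 ± 0.49, adjusted p 0.104) and Dsc2 (1.37 ± 0.40, adjusted p 0.0554) were not called in edgeR and were called in DESeq2 (0.0255 and 0.0104). With only the 4 Eff libraries in the edgeR fit 7 members were called, with Pkp2 lower (log2 fold change -0.507, adjusted p 0.0485) and the rest higher. Leaving out d3_Eff replicate 2 left Pkp1 alone, with Pkp3 at 5.23 (adjusted p 0.0546) and Dsg2 at 4.84 (0.0614), and Dsg2 was also lost without d3_Eff replicate 1 (3.40, 0.139) or d6_Eff replicate 2 (0.056).

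Within the Ineff populations, 1 member differed between the days, and 4.42% of all genes were called (3.19% higher and 1.23% lower). Here too the sort markers differed along with the day. Pkp2 fell to 65.0 ± 3.93 CPM in d6_Ineff, against 125 ± 4.53 CPM in d3_Ineff (SD, n = 2 each; log2 fold change -0.95 ± 0.20, edgeR adjusted p 0.0231). In the Eff populations the same gene was at 70.5 ± 3.66 CPM on day 6 and 101 ± 13.2 CPM on day 3 (log2 fold change -0.52 ± 0.20, adjusted p 0.142). Dsp was at 29.6 ± 6.76 CPM in d6_Ineff and 14.1 ± 6.67 CPM in d3_Ineff, a difference that was not called (adjusted p 0.276), though it was with only the 4 Ineff libraries in the fit (0.0243). The Pkp2 call was lost with scaling by total counts alone (adjusted p 0.0943) and without any 1 of the 4 Ineff libraries (up to 0.216).

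**Figure D2:**
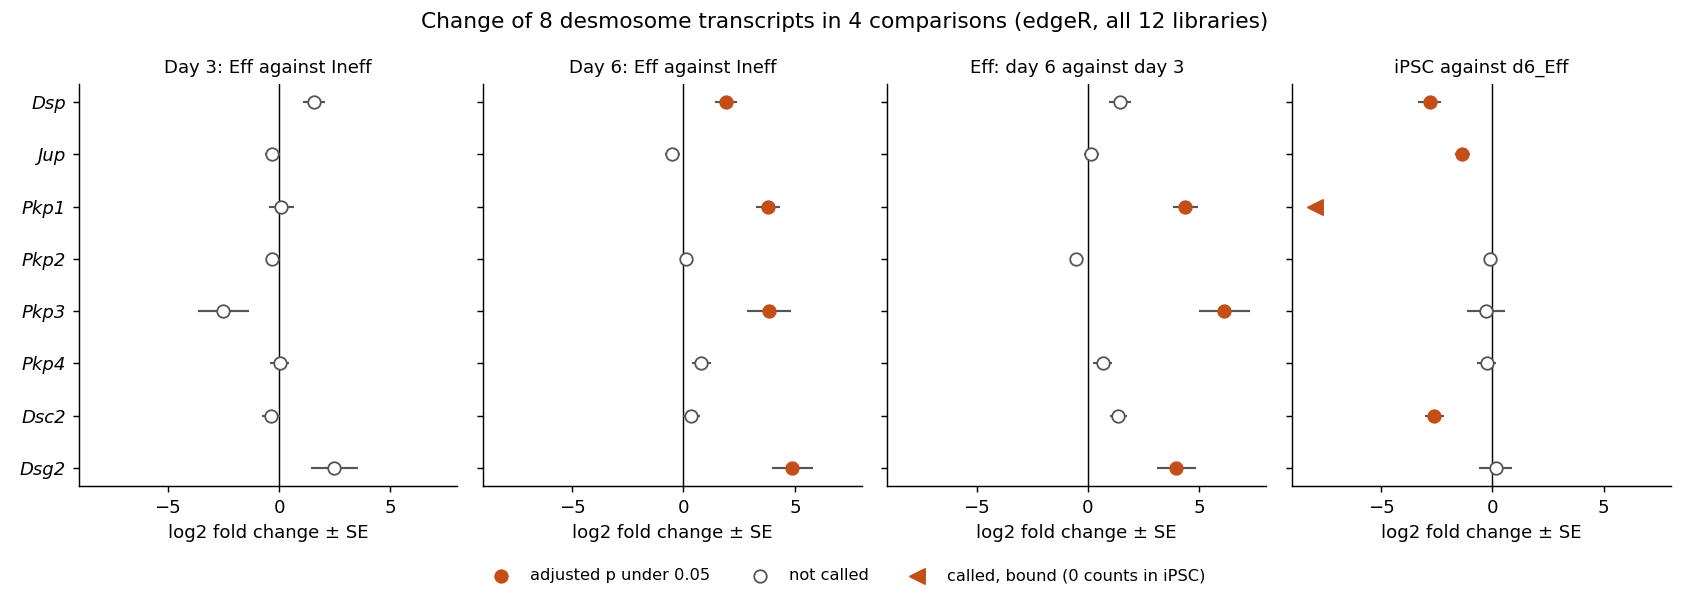
Log2 fold changes of the 8 desmosome genes (x axis, ± SE) in 4 comparisons, one per panel, with filled points for an adjusted p under 0.05 and open points for genes that were not called. No gene was filled on day 3 and 4 were on day 6, and the triangle for Pkp1 in iPSC marks a bound, since no read was counted there.

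The levels per length of exon put the members in order within a group. Jup came first in every group, with 49.4 CPM per kb in d6_Eff and 69.7 CPM per kb in d6_Ineff. In d6_Eff it was followed by Pkp4 (22.7 CPM per kb), Pkp2 (13.1), Dsp (11.7), Pkp3 (5.46), Pkp1 (3.89), Dsg2 (2.42) and Dsc2 (2.13), so that the cadherins were the least abundant parts. In iPSC, Pkp4 (19.2 CPM per kb) stood beside Jup (19.4 CPM per kb), and Dsp was at 1.67 CPM per kb. The ratio of Jup to Dsp per length was 5.07 and 3.64 in d6_Eff, against 27.5 and 19.3 in d6_Ineff, and 8.47 and 12.9 in d3_Eff, against 32.2 and 48.7 in d3_Ineff. The ratio was lower in both Eff libraries than in both Ineff libraries on either day, and in iPSC it was 12.8 and 10.6. In MEF replicate 1 it was 149, and replicate 2 had no Dsp read to give one.

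The plakophilin and cadherin mixtures of d6_Eff also stood apart from those of the other sorted groups. Of the transcripts of Pkp1, Pkp2 and Pkp3 per length, Pkp2 made up 59.0% and 57.9% in d6_Eff, against 97.2% and 93% in d6_Ineff, and between 96.9% and 99.2% in the 4 day 3 libraries. The rest in d6_Eff was Pkp3 (25.0% and 23.6%) and Pkp1 (16% and 18.4%). In iPSC the rest was Pkp3 alone, with 26.0% and 28.7%, and in MEF mostly Pkp1, with 16% and 10%. These mixtures are descriptions of the levels given above and carry no test of their own.

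Of the Dsc2 and Dsg2 transcripts per length, Dsg2 made up 54.8% and 51.7% in d6_Eff, against 2.41% and 5.89% in d6_Ineff. The share was 7.55% and 26.7% in d3_Eff, against 4.30% and 0% in d3_Ineff, on 99 to 152 reads of both genes per library. In iPSC it was 87.8% and 89.7%, and in MEF 18.6% and 0% on 76 and 33 reads. Dsc2 was thus the main cadherin of the pair in every library of MEF, day 3 and d6_Ineff, d6_Eff held both in near equal parts, and iPSC held mostly Dsg2.

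**Figure D3:**
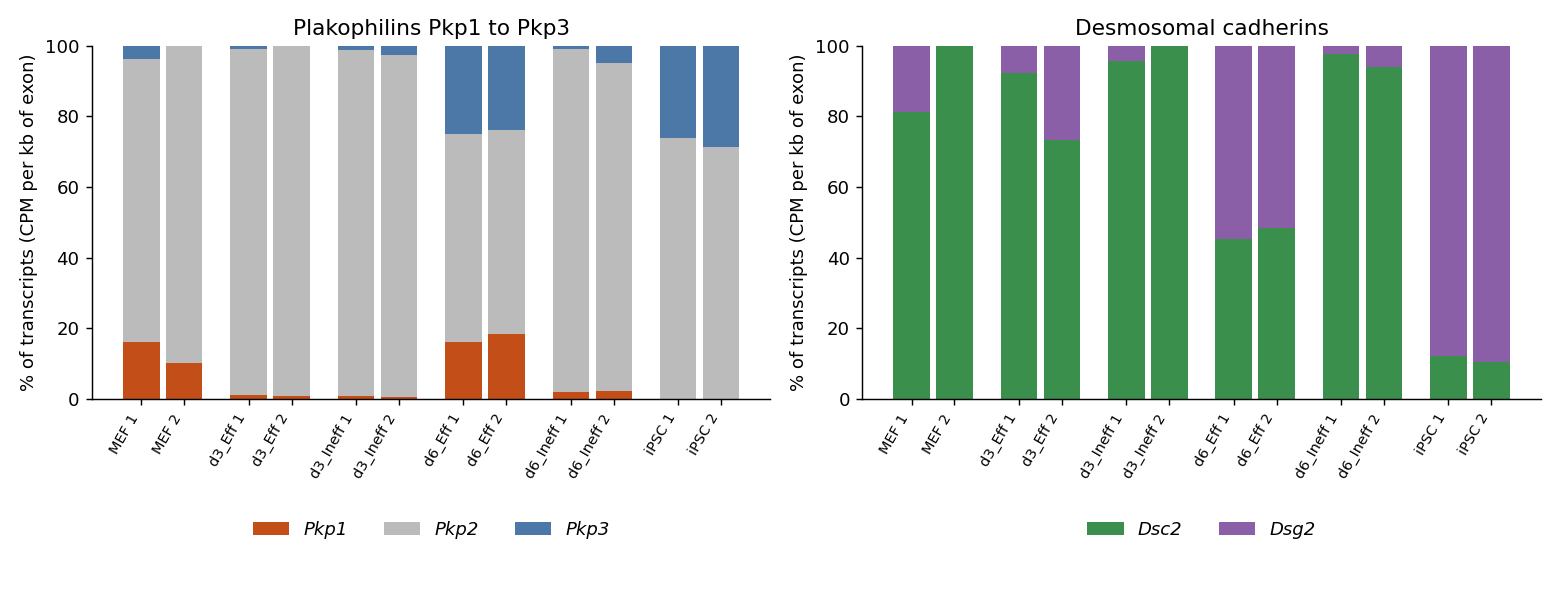
Share of transcripts per library (y axis, % of CPM per kb of exon) for Pkp1 to Pkp3 in the left panel and for the cadherins Dsc2 and Dsg2 in the right panel, with 1 stacked bar per library. Pkp1 and Pkp3 together pass 40% of the plakophilins in d6_Eff alone, and Dsg2 passes 50% of the cadherin pair in d6_Eff and iPSC.

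Relative to MEF, the transcript of every member was higher in d6_Eff, where 42.6% of all genes were called, 20.9% higher and 21.7% lower. The largest difference was that of Dsp, with a log2 fold change of 6.93 ± 0.67 (adjusted p 1.21e-05), followed by Dsg2 (4.91 ± 0.96, adjusted p 0.00169) and Pkp3 (4.65 ± 1.06, adjusted p 0.0045). Pkp4, Pkp1, Jup, Dsc2 and Pkp2 lay between 2.46 and 1.03. The median over the 8 members was 2.16, against 0.0272 over all genes. MEF replicate 2 had no read of Dsp, Dsg2 or Pkp3, so these sizes rest on replicate 1. Against a floor of 3 counts in replicate 2 alone, d6_Eff was at least 269-fold higher for Dsp, 47.9-fold for Dsg2 and 47.2-fold for Pkp3. These are no bounds on the difference from the MEF mean, which was 162-fold, 38.8-fold and 31.9-fold in the same order. Pkp4 had a log2 fold change of 3.83 without MEF replicate 1 and of 1.71 without replicate 2, and Jup of 2.59 and 1.1. Pkp1 lost its call without MEF replicate 2 (log2 fold change 1.302, adjusted p 0.0537) or d6_Eff replicate 2 (1.62, 0.0894), and Dsc2 without d6_Eff replicate 2 (1.44, 0.0606).

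Each of the other 3 sorted groups had a shorter list. In d6_Ineff, 5 members were higher and Pkp1 was lower, where 30.8% of all genes were called, 15.6% higher and 15.2% lower. In d3_Eff, 4 were higher and Pkp1 was lower, where 36.5% of all genes were called, 18% higher and 18.6% lower. The same counts held in d3_Ineff, where 30% of all genes were called, 15% higher and 15% lower. Dsp, Jup, Pkp2 and Pkp4 were the 4 that were higher in all of these groups. Dsp had log2 fold changes of 5.50 ± 0.65 in d3_Eff, 3.93 ± 0.64 in d3_Ineff and 5.01 ± 0.64 in d6_Ineff, sizes that rest on MEF replicate 1. Against the floor in MEF replicate 2 alone, Dsp was at least 99.7-fold higher in d3_Eff, 33.6-fold in d3_Ineff and 70.8-fold in d6_Ineff. These are no bounds on the difference from the MEF mean, which was 59.9-fold, 20.2-fold and 42.5-fold in the same order. Without MEF replicate 1 the Pkp4 values in these 3 groups lay between 3.04 and 3.16, and without replicate 2 between 0.95 and 1.04. Jup was highest above MEF in d6_Ineff, with 2.22 ± 0.35 and an adjusted p of 0.000593 (3.09 without MEF replicate 1 and 1.62 without replicate 2).

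Pkp1 fell below MEF in these 3 groups, to 0.927 ± 0.282 CPM in d3_Eff, 0.864 ± 0.262 CPM in d3_Ineff and 1.39 ± 0.24 CPM in d6_Ineff, against 5.22 ± 3.05 CPM in MEF (SD, n = 2 each). Its adjusted p was 0.00439, 0.00452 and 0.0175 in the same order. The fifth member higher in d6_Ineff was Dsc2 (log2 fold change 1.27 ± 0.41, adjusted p 0.0358), a call that held in 3 of the 12 fits that left out 1 library. For d6_Ineff, Pkp1 missed the threshold once MEF replicate 1 was omitted (-1.12, adjusted p 0.145), without either d6_Ineff library (0.108 and 0.0612), and with total counts alone (0.0511). Dsg2 and Pkp3 were not called in any of the 3 groups, and their libraries overlapped those of MEF. The comparisons with MEF share the same MEF libraries, whose replicates differed widely, and the medium differed between MEF and the sorted groups, so that medium and stage cannot be told apart. With only the groups compared in the fit, the calls against MEF numbered 6 of 8 in d6_Eff, 2 in d6_Ineff, 3 in d3_Eff and 1 in d3_Ineff. Without d6_Ineff replicate 2, 2 members were called in d6_Ineff.

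In iPSC, 5 members were higher than in MEF and 1 was lower, where 52.7% of all genes were called, 26% higher and 26.7% lower. The medium differed here as well, so medium and stage cannot be told apart. Dsg2 (log2 fold change 5.06 ± 0.96, adjusted p 0.00103), Pkp3 (4.38 ± 1.06, adjusted p 0.00477) and Dsp (4.13 ± 0.64, adjusted p 0.00025) had the largest differences, followed by Pkp4 (2.22 ± 0.45) and Pkp2 (0.90 ± 0.20). The sizes for Dsg2, Pkp3 and Dsp rest on MEF replicate 1, since replicate 2 had no read of them. Against the floor in MEF replicate 2 alone, iPSC were at least 53.4-fold higher for Dsg2, 38.9-fold for Pkp3 and 38.6-fold for Dsp. Those values are no bounds on the difference from the MEF mean, which was 43.3-fold, 26.3-fold and 23.2-fold in the same order. Pkp4 had a log2 fold change of 3.59 without MEF replicate 1 and of 1.51 without replicate 2. Pkp1, with no read in iPSC, was at least 67.0-fold lower, measured against a floor of 3 counts over the group (adjusted p 3.02e-05). Jup was at 125 ± 3.42 CPM in iPSC and 95.8 ± 60.2 CPM in MEF and was not called (log2 fold change 0.38 ± 0.33, adjusted p 0.372). Without MEF replicate 1 it was called higher, at 1.24 with an adjusted p of 1.7e-05, and without replicate 2 the value was -0.21 with 0.34. Dsc2 was not called (-0.999 ± 0.424, adjusted p 0.0684), and was called lower without MEF replicate 1 (-1.31, 0.0347). With only iPSC and MEF in the fit, Pkp2 and Pkp4 were not called (adjusted p 0.0726 and 0.0614).

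In iPSC against d6_Eff, 4 members were lower and none was called higher, and 29.6% of all genes were called (13.6% higher and 15.9% lower). The d6_Eff cells came from ES media with dox and AA and the iPSC from ES media, so medium and stage cannot be told apart. The median log2 fold change was -0.813 over the members and 0 over all genes. Dsp fell to 16.2 ± 1.72 CPM in iPSC, against 113 ± 27.5 CPM in d6_Eff (SD, n = 2 each; log2 fold change -2.80 ± 0.52, edgeR adjusted p 0.0018). Dsc2 fell to 1.82 ± 0.34 CPM in iPSC, against 11.2 ± 0.893 CPM in d6_Eff (log2 fold change -2.61 ± 0.42, edgeR adjusted p 0.000743). Jup fell to 125 ± 3.42 CPM in iPSC, against 318 ± 3.84 CPM in d6_Eff (log2 fold change -1.35 ± 0.34, edgeR adjusted p 0.0113). Pkp1 was at least 250.4-fold lower in iPSC (adjusted p 1.73e-05). The Jup call was lost without either iPSC library (adjusted p 0.0671 and 0.076), with the fold change nearly the same.

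The other 4 members were not called between iPSC and d6_Eff. The log2 fold changes were 0.16 ± 0.74 for Dsg2 (adjusted p 0.909), -0.28 ± 0.85 for Pkp3 (0.853), -0.24 ± 0.43 for Pkp4 (0.727) and -0.13 ± 0.20 for Pkp2 (0.684). For Pkp2 the libraries overlapped. Both iPSC libraries lay above both d6_Eff libraries for Dsg2 and below them for Pkp3 and Pkp4. Of the 4 members called higher in d6_Eff than in d6_Ineff, Dsg2 and Pkp3 were thus near the same level in iPSC, Dsp was lower, and Pkp1 was not detected.

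Other desmosomal genes were chosen as a list of 11: the further desmogleins and desmocollins, the plakin family members Ppl and Evpl, the desmosomal membrane protein Perp and corneodesmosin, Cdsn. Dsg1a, Dsg1b, Dsg1c, Dsg3, Dsg4 and Dsc1 were listed at 0 in all 12 libraries, and Dsc3 averaged at most 0.156 CPM in any group. Only Perp, Ppl, Evpl and Cdsn passed the filter. Evpl, the plakin envoplakin of the cornified envelope, measured 10.0 and 14.9 CPM in d6_Eff, against 1.27 and 1.28 CPM in d6_Ineff (log2 fold change 3.28 ± 0.89, adjusted p 0.031). Ppl, its partner periplakin, measured 1.83 and 5.58 CPM in d6_Eff, against 0 and 0.199 CPM in d6_Ineff (5.00 ± 1.51, adjusted p 0.0482). These were the 2 of 4 called on day 6, and both stood lower than Dsp, the plakin among the members. Of all genes, 5.37% were called higher in d6_Eff than in d6_Ineff.

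Like Jup, Perp, a membrane protein of desmosomes and a p53 target, was higher in every sorted library than in any MEF or iPSC library. Unlike Jup, Perp was higher in both iPSC libraries than in both MEF libraries. It measured 4.28 and 10.1 CPM in MEF, 349 and 328 CPM in d3_Eff, 448 and 571 CPM in d3_Ineff, 399 and 385 CPM in d6_Eff, 408 and 380 CPM in d6_Ineff and 54.4 and 40.7 CPM in iPSC. Every sorted library lay above 300 CPM and every other library below 60. The day 6 populations did not differ in it by the test (log2 fold change -0.01 ± 0.29, adjusted p 1), and iPSC were lower than d6_Eff (-3.04 ± 0.32, adjusted p 3.56e-05). Cdsn, known from the cornified layer of skin, averaged 23.5 CPM in MEF and at most 1.80 CPM in any other group.

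The adherens junction list of 15 genes moved in both directions between the day 6 populations, with 3 higher and 2 lower. Of all genes, 5.37% were called higher and 9.25% lower there. Cdh1, E-cadherin, was higher (413 CPM in d6_Eff and 43.0 CPM in d6_Ineff on average; log2 fold change 3.26 ± 0.25, adjusted p 3.89e-05), as were Nectin4 (3.67 ± 0.84) and Nectin1 (1.38 ± 0.37). Cdh2, N-cadherin, was lower (-4.52 ± 0.63), as was Vcl, vinculin (-1.86 ± 0.48). On day 3, where 0.4% of all genes were called, none of the 15 was called. Among intermediate filaments, of which 8 of 11 passed the filter, Krt8 (3.66 ± 0.33), Krt18 (2.37 ± 0.30) and Des (1.63 ± 0.44) were higher in d6_Eff and Vim was lower (-3.16 ± 0.24). Krt8 and Krt18 form the keratin pair of simple epithelia, and Des encodes desmin. In iPSC against d6_Eff, 3 of the 8 were higher and 3 lower, where 13.6% of all genes were higher and 15.9% lower. Krt8 fell (-2.56 ± 0.32, adjusted p 0.00012), while its partner Krt18 was at 36.2 CPM in iPSC and 32.0 CPM in d6_Eff and was not called (0.18 ± 0.28, adjusted p 0.691).

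Of all genes tested, 5.37% were called higher in d6_Eff than in d6_Ineff and 9.25% lower. Of 8 regulators of epithelial transcripts, 5 were higher in d6_Eff and none was lower. Of the 5 tested factors that drive the opposite, mesenchymal programme, 3 were lower and none was higher. The 3 with the smallest adjusted p were the splicing factor Esrp1 (log2 fold change 8.19 ± 0.60), Grhl2 (4.63 ± 0.39) and Ovol2 (3.37 ± 0.32), and the lower ones were Twist1 (-2.48 ± 0.30), Snai1 (-2.35 ± 0.47) and Snai2 (-4.44 ± 0.96). Zeb1 was listed at 0 in every library and was not tested. As the gene annotation behind the counts is not named, this 0 does not show that Zeb1 was absent. Of 16 genes that act on desmosome assembly and turnover, among them kinases, proteases, calcium pumps and microtubule genes, none was higher in d6_Eff and 4 were lower. They included Flot1 (-1.46 ± 0.21) and Flot2 (-1.29 ± 0.19), which encode flotillins, and Prkca (-1.71 ± 0.34), which encodes protein kinase C alpha. In GENCODE M21, Vcl, Des, Grhl2, Ovol2 and Prkca share exon bases with an opposite-strand gene of the count tables. Reads of those stretches cannot be assigned to either gene.

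**Figure D4:**
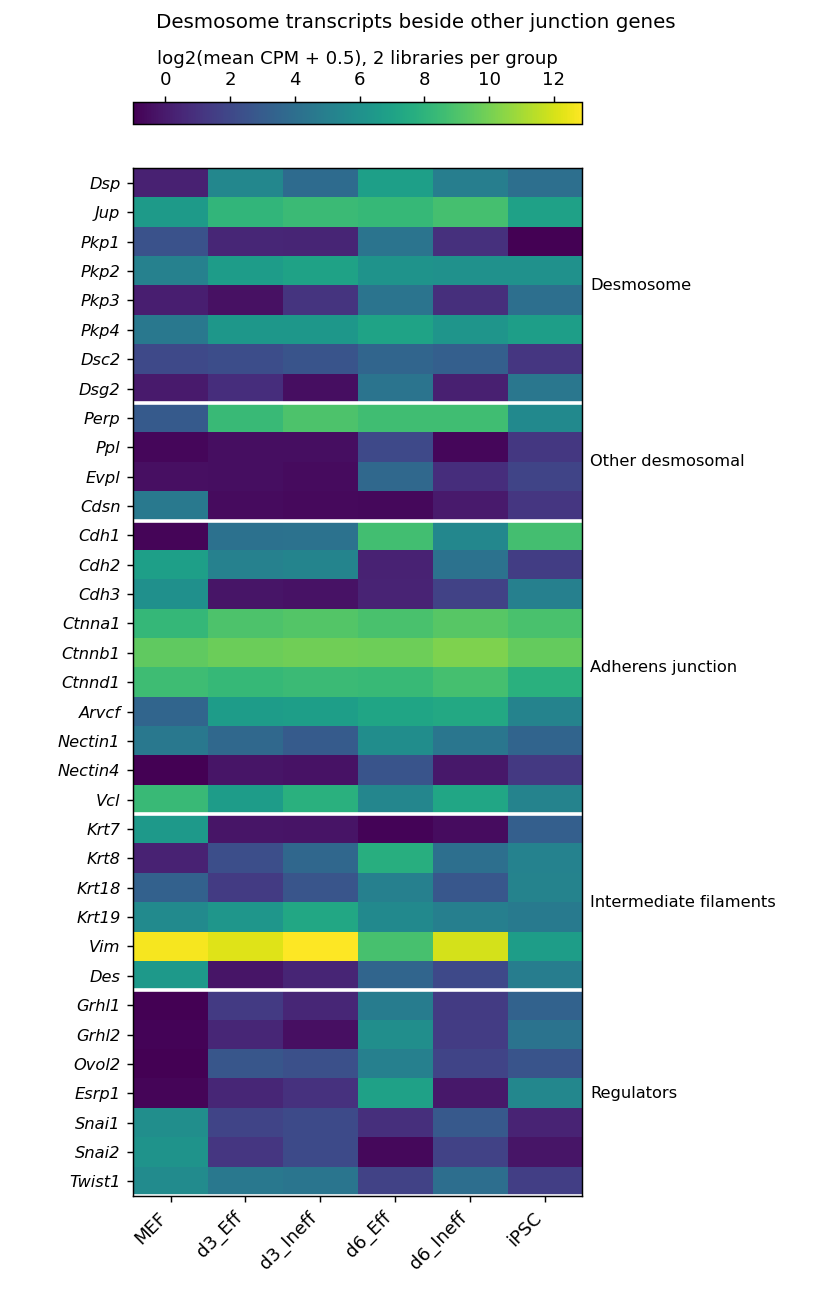
Mean level of the desmosome genes and of genes from the other junction lists (rows) in the 6 groups (columns), as log2 of the mean CPM of 2 libraries plus 0.5, with lighter colours for higher levels. In the d6_Eff column Cdh1, Krt8, Grhl2 and Esrp1 are lighter than in the d6_Ineff column, and Vim, Cdh2 and Twist1 are darker.

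Markers of other cell types that use desmosomes were low beside these differences. The 8 markers of stratified keratinocytes summed to 7.22 to 7.57 CPM in d6_Eff and 6.54 to 9.67 CPM in d6_Ineff. In each of these groups 4 of the 8 had no count, Krt1, Krt5 and Ivl among them, and the rest carried the sum. Krt14 was at 0.302 CPM in d6_Eff. Of the list, 2 genes were tested and neither was called. The 8 markers of cardiomyocytes summed to 4.23 to 5.99 CPM in d6_Eff and 6.82 to 9.56 CPM in d6_Ineff, and none of the 6 tested was called. Of the 8, 5 had no count in d6_Eff, Myh6 among them, and 2 had none in d6_Ineff. The 8 fibroblast markers summed to 143 to 235 CPM in d6_Eff and 1310 to 1380 CPM in d6_Ineff, and 6 of the 8 were lower, against 9.25% of all genes. Between the day 6 populations they went the opposite way from the desmosome genes that were called, and their part in the result was not tested. The 8 pluripotency markers summed to 815 to 818 CPM in d6_Eff and 607 to 632 CPM in d6_Ineff, and reached 8490 to 8980 CPM in iPSC. The 6 endothelial markers summed to 81.3 to 82.8 CPM in d6_Eff and 141 to 151 CPM in d6_Ineff, with 2 of the 5 tested lower, and the 8 leukocyte markers to 206 CPM in d6_Eff and 480 to 491 CPM in d6_Ineff, with 1 of the 6 tested lower. Most of these sums came from Tek and Laptm5, while Pecam1 was at 0.162 CPM and Ptprc at 0 in d6_Eff. Epcam, which the day 6 sort used, averaged 970 CPM in d6_Eff and 27.8 CPM in d6_Ineff and is no finding.

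Across the 12 libraries, the members fell into more than one pattern. On log2 CPM, Pearson's r was highest between Dsp and Pkp4 (0.898) and between Dsg2 and Pkp3 (0.882), and lowest between Pkp1 and Pkp2 (-0.287). Jup went with Dsp (0.756) and Pkp2 (0.704) and not with Dsg2 (-0.0899) or Pkp3 (0.00507). These values, and those of the genes most like each member among 11465 protein-coding genes, are descriptions over libraries that share their groups. The nearest to Dsg2 were Kazn (r 0.968), which encodes the desmosome-associated protein kazrin, Bspry and Gga2, with Bspry at 29.0 CPM in d6_Eff and 0.703 CPM in d6_Ineff. The nearest to Pkp3 were AI661453, Slc37a1 and Ap1m2 (0.946 to 0.95), the last of which encodes a subunit of a vesicle adaptor of epithelial cells, with 126 CPM in d6_Eff and 1.14 CPM in d6_Ineff.

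The other members had other neighbours. Those of Dsp were Pkmyt1, Hjurp and Bend3 (0.964 to 0.969), of which the first encodes a kinase of the cell cycle and the second a chaperone of centromeric histone. Those of Pkp4 were Ddx5, Kif15 and Ythdc1 (0.981 each), those of Jup were Dock9, Tenm3 and Nol4l (0.979 to 0.983), and those of Pkp2 were Pdha1, Fign and Phkg2 (0.945 to 0.962). Pkp1 had Fam84b (0.959), Micu3 and Gramd3, with Fam84b at 16.9 CPM in d6_Eff and 7.12 CPM in d6_Ineff. Dsc2 had Zfp113 (0.948), Itpripl1 and Ccdc28b.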

How the data were processed

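Poly-A RNA from 12 samples, sorted by FACS after trypsin harvest, was sequenced from directional libraries, per the labels' protocols. The submitters' processing notes name the build mm9 and the tools STAR 2.3.0, Picard 1.100 and HTSeq 0.6.0. The deposited values are raw read counts per gene, marked by the authors as counted without regard to strand. No source used here names their gene annotation. The 5 summary lines of each table were left out, and of these only the share of reads outside genes is given with the libraries. A symbol was found in the GENCODE M21 table for 32860 of the 37583 IDs (87.4%), which was also the source of exon lengths.

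Counts were fitted in edgeR 4.0.16 (R 4.3.3, limma 3.58.1) with filterByExpr, TMM factors, 1 mean per group over all 12 libraries and robust quasi-likelihood tests (prior count 0.125, residual df 6). P-values were adjusted by Benjamini-Hochberg over 16240 genes, and the SE is the size of the log2 fold change over the root of F. The biological coefficient of variation was 28%. Alternatives were other size factors, other filters, a fit of only the groups compared, DESeq2 1.42.0, a block for the replicate number and the omission of each library. The omission of both libraries with over 20% of reads outside genes was added after seeing the data.

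The members and lists were chosen with earlier results of these data known. Genes named from the lists are the other desmosomal genes with at least 1 CPM in a library and up to 3 called genes per direction with the smallest adjusted p; neighbours are the 3 most correlated protein-coding genes with a group mean of at least 5 CPM. The lists held 128 entries, of which 126 were matched. The fit was tested on simulated counts, where it missed a preset share of recovered 4-fold changes; the criterion was then replaced by one on bias and false calls, with the fit unchanged. Figures were drawn with matplotlib 3.10.9.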

Additional observations from a re-analysis of the deposited data

Results flagged for a closer look

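The Eff against Ineff contrast of Pkp1, the plakophilin of stratified epidermis, passed the test of a difference between the days, narrowly and not under every setting. Since the days also differed in the sort markers, day and sort cannot be told apart. The day 6 contrast exceeded the day 3 contrast by 3.70 on the log2 scale (SE 0.76, edgeR adjusted p 0.0485 over all genes). Both d6_Eff libraries, at 17.3 and 21.8 CPM, lay above both d6_Ineff libraries, at 1.22 and 1.56 CPM. The 2 d3_Eff libraries, at 1.13 and 0.728 CPM, overlapped the 2 d3_Ineff libraries, at 1.05 and 0.679 CPM. The difference stayed between 3.30 and 4.04 when any 1 library was left out, while its adjusted p ranged from 0.00226 to 0.217 and passed the threshold in 2 of these 12 fits. The call was also lost with the replicate number as a block (adjusted p 0.0534) and with scaling by total counts alone (0.0889).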

How the results depend on the processing

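Over 20 alternative settings, 1618 of 1759 values of the 8 desmosome genes kept their direction and side of the threshold, 66 lost a call and 47 gained one. The other 28 changed sign, in 14 gene and comparison pairs, and none of them was called before or after. The counts of members called against MEF in iPSC and d6_Eff, and in iPSC against d6_Eff, stayed within 1.5 times under every setting. With only the groups compared in the fit, members called against MEF numbered 3 in d3_Eff, 1 in d3_Ineff and 2 in d6_Ineff, against 5, 5 and 6. For d3_Eff against d3_Ineff the count of 0 became 3 with no filter, 1 with only the groups compared and 1 without both libraries of many reads outside genes. For d6_Eff against d3_Eff the count of 3 became 5 with no filter, 7 with only the groups compared, 5 in DESeq2 and 5 without those libraries. For d6_Ineff against d3_Ineff the count of 1 became 0 with total counts alone and 2 in each of the same 3 settings other than DESeq2. For the difference between days the count of 1 became 0 with total counts alone and 2 in each of all 4.

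Leaving out 1 library in turn gave 1 to 6 members for d6_Eff against d6_Ineff, with 1 without d6_Ineff replicate 1 and 2 without either d6_Eff library. It gave 1 to 7 for d6_Eff against d3_Eff, 2 to 6 for d6_Ineff against MEF, 0 to 2 for d6_Ineff against d3_Ineff, 0 to 1 for d3_Eff against d3_Ineff and 0 to 3 for the difference between days. The causes were not tested.

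The log2 values that changed sign were small or rested on few reads, and those fitted against a lone library with no read depend on edgeR's prior count. When 1 library was left out, Dsg2 ranged from -6.72 to 5.16 in d3_Ineff against MEF, from -1.21 to 6.75 in d6_Ineff against MEF and from -2.79 to 3.59 in the difference between days. Pkp3 ranged from -6.95 to 5.47 in d3_Eff against MEF, from -1.18 to 7.78 in d6_Ineff against MEF and from -2.19 to 0.55 in d6_Ineff against d3_Ineff. The ranges were -0.21 to 1.24 for Jup in iPSC against MEF, -0.26 to 0.57 for Dsc2 in d3_Eff against MEF and -0.28 to 0.74 for Dsp in the difference between days. Pkp1 ranged from -0.31 to 0.43 and Pkp4 from -0.18 to 0.17 in d3_Eff against d3_Ineff, and Pkp4 from -0.25 to 0.072 in d6_Ineff against d3_Ineff. Pkp2 ranged from -0.032 to 0.13 in d6_Eff against d6_Ineff and from -0.27 to 0.004 in iPSC against d6_Eff. With total counts alone Pkp4 was at 0.033 in d6_Ineff against d3_Ineff. Without both libraries of many reads outside genes, Jup was at -0.16 in iPSC against MEF and Dsg2 at -0.60 in d6_Ineff against MEF.

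Over all genes, 65 were called between d3_Eff and d3_Ineff, 445 in DESeq2, 459 with no filter and 700 with only those groups in the fit. Between d6_Eff and d6_Ineff 2374 were called, and 5002 with only those groups. Leaving out 1 library gave 5.36% to 27.1% of genes there, 3.79% to 17% in d6_Eff against d3_Eff, 0.588% to 15% in d6_Ineff against d3_Ineff, 0.115% to 7.75% in the difference between days and 16.4% to 39.1% in iPSC against d6_Eff. Against MEF it gave 37.2% to 51.3% in iPSC, 28.9% to 46.4% in d6_Eff, 17.9% to 41.6% in d6_Ineff, 22.8% to 42.5% in d3_Eff and 16.8% to 39% in d3_Ineff. Scaling by total counts alone moved the median of all genes by 0.2 to 0.353 on the log2 scale in comparisons with MEF. Of 2860 counts over the gene lists, 379 moved by over 1.5 times.

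Whether the replicate numbers pair the samples could not be settled with groups of 2. Over 15 pairs of groups, the deviations of same-numbered libraries correlated at -0.147 to 0.351, with 6 over 0.1. With a replicate block, Pkp1 lost its call in the difference between days (adjusted p 0.0534, count 0), and no other member's call changed. Groups of 2 limit the precision throughout, and members under about 1 CPM rest on few reads.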
